A study of Danio rerio with 32 samples.

Results

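The coagulation factor and serpin genes of larval zebrafish liver were followed across genotype, acetaminophen and time. Members were picked by gene symbol: serpins, the numbered coagulation factors, the fibrinogen chains, plasminogen, protein C, protein S, protein Z, kininogen, the alpha-2-macroglobulin-like gene a2ml and von Willebrand factor. The members described are 49 of the 32519 genes in the count table. A serpin name brought in 23 members, a coagulation factor name 14, and a listed name 9. The symbols PROC, on 2 rows, and PROZ, on 1 row, were taken as the listed zebrafish copies of protein C and protein Z, which the table gives under human-style symbols. The 7 rows named F2R, which are thrombin receptor genes, were left out by the rule, and f8a was left out because it is named after coagulation factor VIII without being one. Where a symbol stands on several rows, the Ensembl gene identifier follows the name.

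The liver makes most clotting proteins of the blood plasma. Coagulation is a cascade in which vitamin K-dependent proteases cut one another into active forms until thrombin turns fibrinogen into fibrin, with factor V as a cofactor. Serpins are protease inhibitors that trap their target: antithrombin restrains thrombin and factor X, and alpha-2-antiplasmin holds back plasmin, the protease that dissolves clots. Loss of clotting factors is a textbook sign of severe acetaminophen injury of the liver, since hepatocytes both make these proteins and are the cells the drug harms.

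Livers came from larvae that were wild type (WT) or nrf2KO (KO, knocked out for Nrf2, a transcription factor that drives antioxidant genes), given either the drug (acetaminophen, APAP) or its solvent control (dimethyl sulfoxide, DMSO), and taken after 12 h or 24 h. WT DMSO, WT APAP, KO DMSO and KO APAP at each time make 8 groups of 4 libraries. Every library was total RNA of 20 pooled dissected livers, so variation between single larvae is not seen. The labels give neither the APAP dose, the larval age, nor which nrf2 copy was mutated, and they do not say whether libraries of a group came from separate clutches. The p-values therefore measure the spread between these pools.

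Total counts per library lay between 3971569 and 6298523. Transcript of NFE2L2, the gene of Nrf2, was present in every group, KO included, at group means of 30.6 to 54.2 CPM (counts per 1000000 counts, after scaling of the libraries), so its level does not check the genotype labels. KO APAP 12 h replicate 2 detected 4129 genes, while WT DMSO 12 h replicate 2 detected 8815, KO DMSO 12 h replicate 3 detected 9703 and the median library 12096. Many member counts and named changes that rest on these 3 libraries are given with and without them. The others are given with them only. Hepatocyte markers took 6.05% to 13.7% of the counts, thrombocyte markers at most 0.00245% and endothelial markers at most 0.00526%, while genes of exocrine pancreas, which lies against the liver, took 1.08% to 10.8%.

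Together the members took 0.749% to 2.04% of the counts of a library, with a median of 1.23%. A count in every library was found for 19 members, 41 passed the filter on low counts and were tested, and 8 did not pass. Those 8 are f8, which had no count, both F13A1 rows, f3a, vwf, SERPINB1 (ENSDARG00000070396), serpinb1l4 and SERPINB8. The factor XIII A chain (F13A1) and von Willebrand factor are known from blood and vessel cells, and vwf had 76 counts in 11 libraries. A further factor XIII A gene, f13a1b, is not a member under the rule. It passed the filter, at a mean log2 CPM of 0.979. Below, a change is called where edgeR's quasi-likelihood test gave an adjusted p under 0.05, by Benjamini-Hochberg over all 11384 genes tested, and each value with ± is a log2 fold change with its standard error (SE), n = 4 libraries per group, unless another quantity is named.

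Under APAP most calls among the members were at 24 h and most were downward, although the difference between the times itself gave no call. For APAP, fell and rose mean called lower and called higher than DMSO at the same time. In WT livers at 24 h 7 of 41 members fell and none rose: f9a, f2, F10, SERPINC1, serpinf2a, serping1 and serpina10b. In KO livers at 24 h 8 fell, namely f9a, f2, F10, F7 (ENSDARG00000075827), SERPINC1, serpinf2a, serping1 and serpina1l, and 1 rose, f5. The 6 members lower in both genotypes are 85.7% of the WT calls and 66.7% of the KO calls. The comparisons share no library but come from the same fit. The overlap over all genes was not counted, so whether it is particular to the members is not shown. Of all genes tested 1.55% were called lower in WT at 24 h and 3.00% in KO, and 2.05% were called higher in KO. The median change of the 41 members was -0.80 in WT and -0.64 in KO at 24 h, beside 0.02 and -0.00365 for all genes. The WT count at 24 h was 2 to 4 when any 1 of its libraries except WT APAP 24 h replicate 4 was left out, the lowest without WT APAP 24 h replicate 2, and it was 13 without the 3 libraries of fewest genes. In WT APAP 24 h replicate 2 exocrine pancreas genes took 10.8% of counts, the highest share of any library. Hepatocyte markers took 6.42% there, the lowest of its group, and the members 0.749%, the lowest of any library. The part of this mixture in the WT calls was not tested. The KO count at 24 h was 7 or 8 when any 1 of its libraries was left out and 14 without the 3 libraries of fewest genes. Without those 3 libraries the calls rose among all genes too. In WT at 24 h they went from 187 higher and 177 lower to 472 and 444, and in KO from 233 and 342 to 558 and 657. In bulk tissue fewer hepatocytes and less RNA per hepatocyte cannot be told apart.

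Fewer members passed the threshold at 12 h. No member was called in WT at 12 h, where 1.80% of all genes were called. At an unadjusted p under 0.05 edgeR listed 5 members there, 1 higher and 4 lower, and DESeq2 called 1, proza. In KO at 12 h f5 rose and f9a and f13b fell, beside 3.09% of all genes called higher and 2.13% called lower. For KO, edgeR listed 14 members with an unadjusted p under 0.05 at this time (4 upward, 10 downward) and 15 at 24 h. All genes were not counted at that unadjusted threshold. DESeq2 called 8 members at 12 h and 10 at 24 h. Of all 11369 genes it called 423 higher and 850 lower at 12 h, and 369 and 513 at 24 h. The member counts were thus close between the times, while more of all genes were called at 12 h. The median member changed by -0.37 in WT and by -0.32 in KO, and the median of all genes by -0.07 and -0.30. With RLE scaling the split of all genes in KO went from 352 higher and 242 lower to 244 and 345. The KO count of members, 3, was 6 without KO APAP 12 h replicate 3 and 2 without the 3 libraries of fewest genes.

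**Figure D1:**
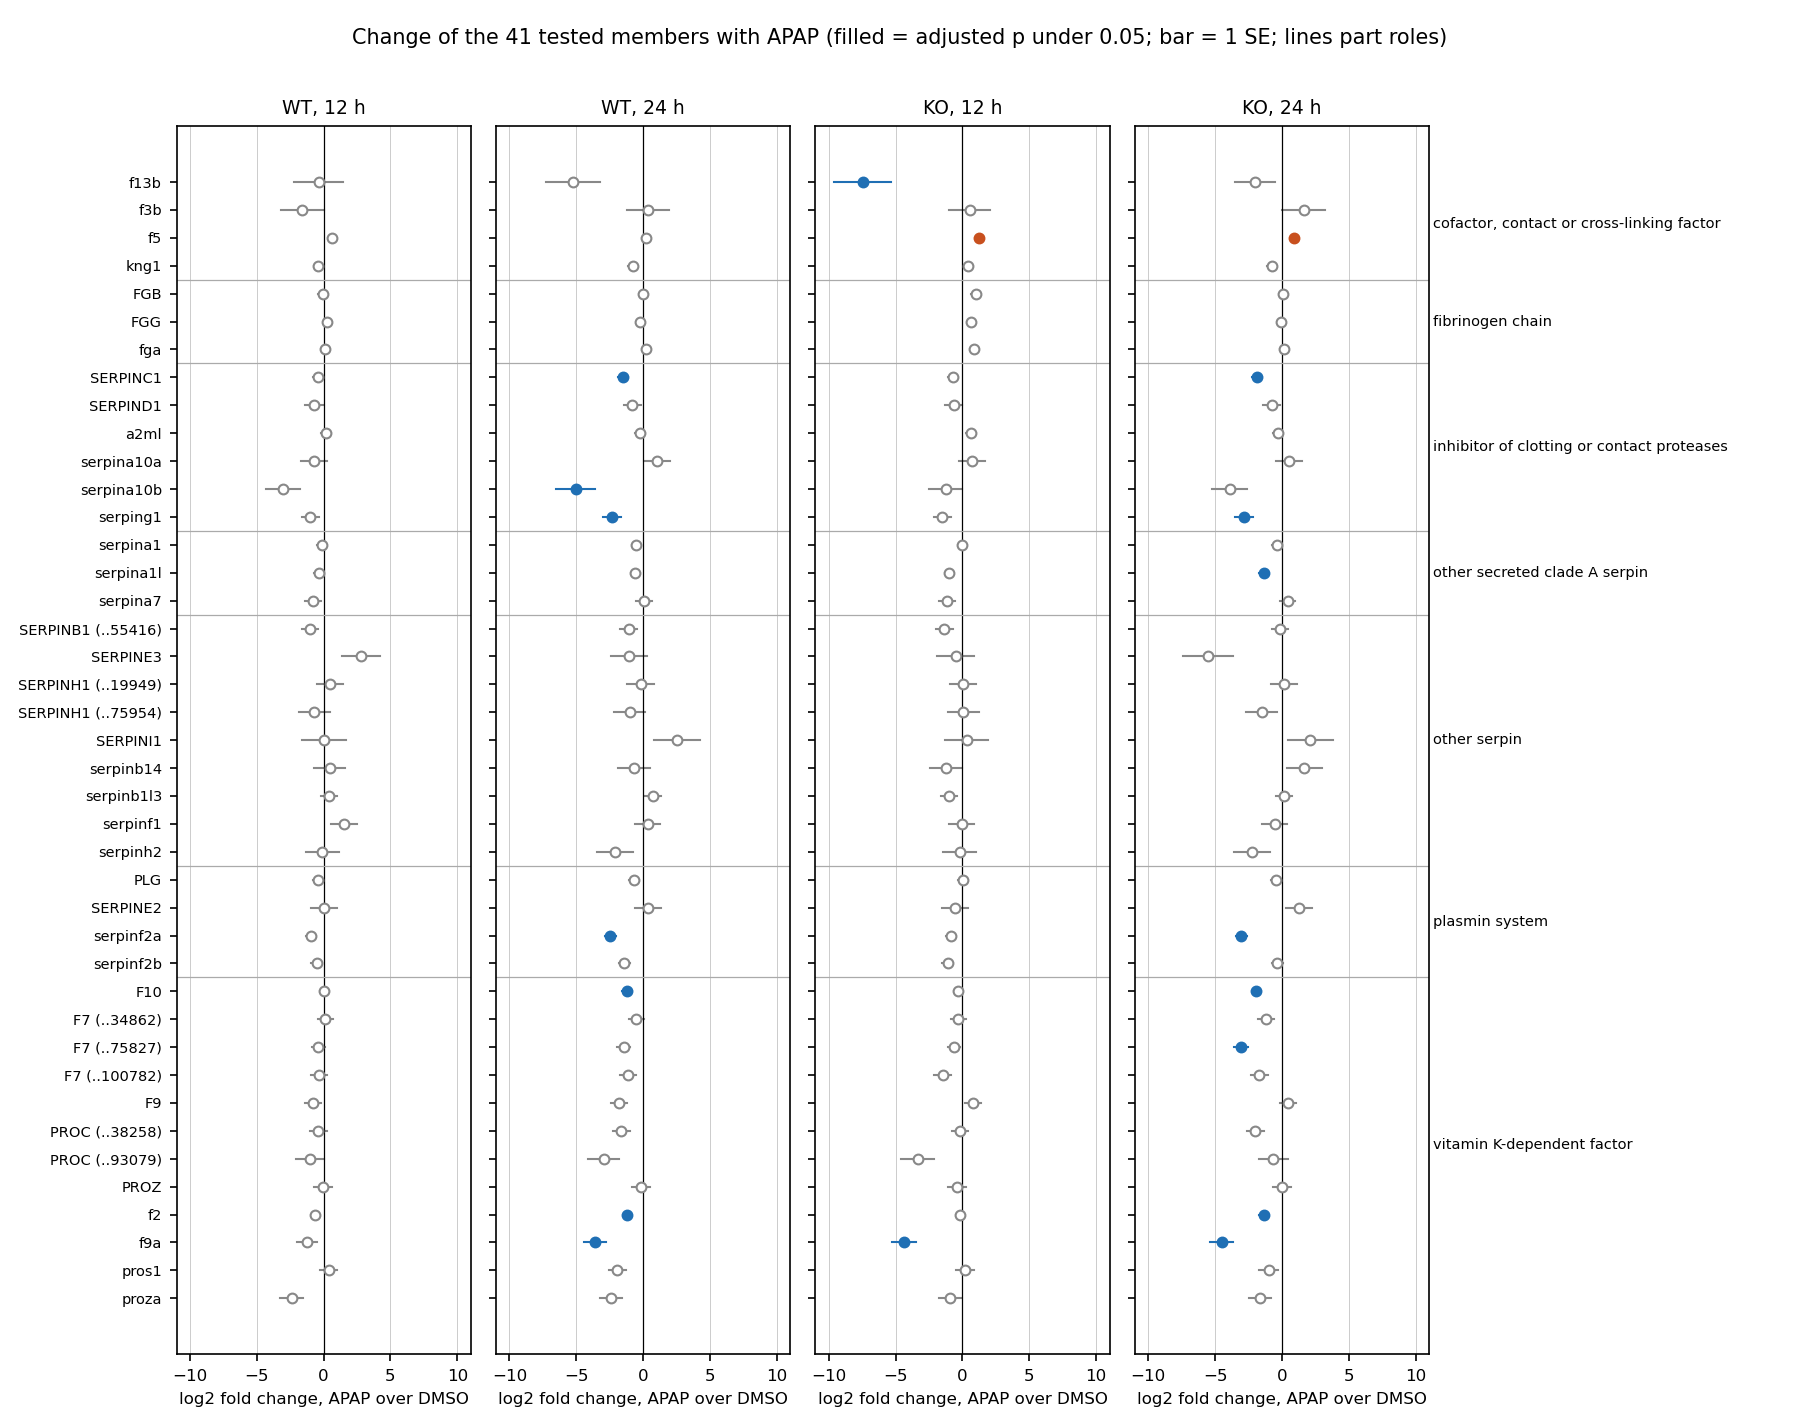
Log2 fold change of APAP over DMSO for each of the 41 tested members (rows, grouped by role) in WT and KO livers at 12 h and 24 h (columns). Points are estimates from 4 against 4 libraries, bars 1 SE, and filled points have an adjusted p under 0.05: blue points to the left gather in both 24 h columns, and f5 is the filled point to the right in both KO columns.

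Of the vitamin K-dependent factors, 12 members and all tested, 3 fell in WT at 24 h and 4 in KO at 24 h. Of all genes 1.55% and 3.00% were called lower there. The median change over the 12 was -1.55 in WT and -1.498 in KO. The gene f9a, a zebrafish copy named for coagulation factor IX, is the protease that activates factor X in mammals. It was measured at 15.9, 21.2, 21.5 and 17.6 CPM in WT DMSO 24 h and at 1.00, 0.600, 0.187 and 4.55 CPM in WT APAP 24 h. In KO it was measured at 26.5, 20.4, 18.8 and 25.99 CPM in DMSO 24 h and at 1.16, 1.31, 0.482 and 0.945 CPM in APAP 24 h. In both genotypes every APAP library at 24 h was below every DMSO library. The changes were -3.61 ± 0.80 in WT (adjusted p = 0.0051, edgeR) and -4.51 ± 0.84 in KO (adjusted p = 0.00037, edgeR), and both remained past the threshold in all 14 alternatives.

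At 12 h the gene f9a was called lower under APAP in KO and was not called in WT. KO DMSO 12 h libraries held 1.68, 5.01, 16.03 and 5.03 CPM of it and KO APAP 12 h libraries 0, 0, 0.437 and 0.772 CPM, which rests on 6 counts in the latter group. The groups did not overlap, with a change of -4.39 ± 0.91 (adjusted p = 0.0017, edgeR). Without the 3 libraries of fewest genes, which removes 1 library of each group, the change was -3.25, the smallest of its 14 alternatives; with only the compared groups in the fit its adjusted p rose to 0.18. In WT, DMSO 12 h stood at 5.06, 9.01, 4.22 and 14.4 CPM and APAP 12 h at 2.37, 8.45, 1.09 and 1.90 CPM. Those groups overlapped and the change, -1.24 ± 0.73, was not called (adjusted p = 0.63, edgeR). The difference between the genotypes in this response, -3.15, was not called either (adjusted p = 0.46, edgeR; -2.07 without the 3 libraries of fewest genes), although f9a was lower in KO than in WT under APAP at 12 h (-3.39 ± 0.90, adjusted p = 0.034, edgeR; -3.04 and 0.048 without those libraries). That last call was lost in 5 of 13 alternatives, each of which left out 1 library, with adjusted p up to 0.18; the 5 are WT APAP 12 h replicates 1 and 2 and KO APAP 12 h replicates 1, 2 and 3.

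Factor X and prothrombin, the proteases at the end of the cascade, were lower under APAP than in DMSO at 24 h in both genotypes. F10, the gene of factor X, was measured at 414, 492, 541.5 and 546.5 CPM in WT DMSO 24 h and at 256, 176, 115 and 311 CPM in WT APAP 24 h. In KO, F10 was at 412.5, 302, 309.7 and 278 CPM in DMSO 24 h and at 67.4, 65.2, 109.7 and 104 CPM in APAP 24 h. At 12 h WT held 79.7, 193.5, 198 and 264 CPM in DMSO and 174, 106, 231 and 254 CPM in APAP. KO held 120, 76.0, 190 and 161 CPM in DMSO 12 h and 75.4, 84.9, 167 and 111 CPM in APAP 12 h. Both genotypes had all APAP libraries below all DMSO libraries at 24 h, and the KO change, -1.91 ± 0.36 (adjusted p = 0.00037, edgeR), held in all 14 alternatives. The WT change of -1.22 ± 0.35 (adjusted p = 0.043, edgeR) was lost in 7 of 14, when any 1 of the compared libraries except WT APAP 24 h replicate 4 was left out, with adjusted p up to 0.18. KO against WT under APAP at 24 h gave -1.31 ± 0.35 for F10, which missed the threshold (adjusted p = 0.0501, edgeR).

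For f2, the gene of prothrombin, WT DMSO 24 h gave 303, 320, 338 and 252 CPM and WT APAP 24 h 187, 111, 107.5 and 123 CPM. In KO, DMSO 24 h gave 316, 312, 427 and 381 CPM and KO APAP 24 h 118, 108, 192 and 137 CPM. The groups were apart in each genotype, with changes of -1.20 ± 0.32 in WT (adjusted p = 0.025, edgeR) and -1.37 ± 0.32 in KO (adjusted p = 0.0052, edgeR). The WT call was lost in 7 of 14 alternatives, with adjusted p up to 0.10: with no filter on low counts, and without WT DMSO 24 h replicate 1, 2 or 3 or WT APAP 24 h replicate 2, 3 or 4.

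Factor VII, which starts clotting together with tissue factor, stood on 3 rows. F7 (ENSDARG00000075827) was measured at 411, 256, 300 and 342 CPM in KO DMSO 24 h and at 26.5, 26.7, 25.6 and 78.2 CPM in KO APAP 24 h, and it fell by 3.06 ± 0.50 on the log2 scale (adjusted p = 5.11e-05, edgeR). In WT DMSO 24 h it was at 320, 582, 417 and 461 CPM and in WT APAP 24 h at 186, 129, 70.1 and 265 CPM. The WT groups did not overlap, yet the change of -1.45 ± 0.47 was not called (adjusted p = 0.084, edgeR). Under APAP at 24 h this row was lower in KO than in WT (-2.05 ± 0.48, adjusted p = 0.015, edgeR) although KO replicate 4 lay above WT replicate 3; the call was lost without WT APAP 24 h replicate 4 or KO APAP 24 h replicate 1, 2 or 3, with adjusted p up to 0.11. F7 (ENSDARG00000034862) and F7 (ENSDARG00000100782) were not called under APAP, with 24 h changes of -0.49 ± 0.56 and -1.11 ± 0.61 in WT and -1.19 ± 0.56 and -1.69 ± 0.63 in KO. Near-identical copies of a gene can share reads, and the counting may have split them.

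The other vitamin K-dependent members were not called under APAP. PROC (ENSDARG00000038258), a gene of the anticoagulant protease protein C, stood at 256, 294, 229 and 257 CPM in WT DMSO 24 h and at 133.5, 59.8, 38.7 and 101 CPM in WT APAP 24 h, without overlap (-1.64 ± 0.63, adjusted p = 0.19, edgeR). In KO it gave 197, 131, 226 and 264 CPM in DMSO 24 h and 26.9, 50.5, 58.1 and 71.6 CPM in APAP 24 h, also without overlap (-1.98 ± 0.64, adjusted p = 0.062, edgeR). F9, another row named for factor IX, was at 28.2, 50.6, 23.5 and 24.0 CPM in WT DMSO 24 h and at 11.2, 6.80, 6.92 and 10.6 CPM in WT APAP 24 h. Its WT change was -1.83 ± 0.60 (adjusted p = 0.097, edgeR) and its KO change 0.48 ± 0.59 (adjusted p = 0.83, edgeR); the difference between those changes, 2.31 ± 0.84, was not called (adjusted p = 0.90, edgeR). For proza, protein Z, 24 h changes of -2.41 ± 0.85 in WT and -1.63 ± 0.81 in KO, and for pros1, the protein C cofactor protein S, -1.92 ± 0.66 and -0.9965 ± 0.68, stayed above the threshold, while PROZ was at -0.14 and 0.01. PROC (ENSDARG00000093079) changed by -2.95 ± 1.17 and -0.64 ± 1.09.

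**Figure D2:**
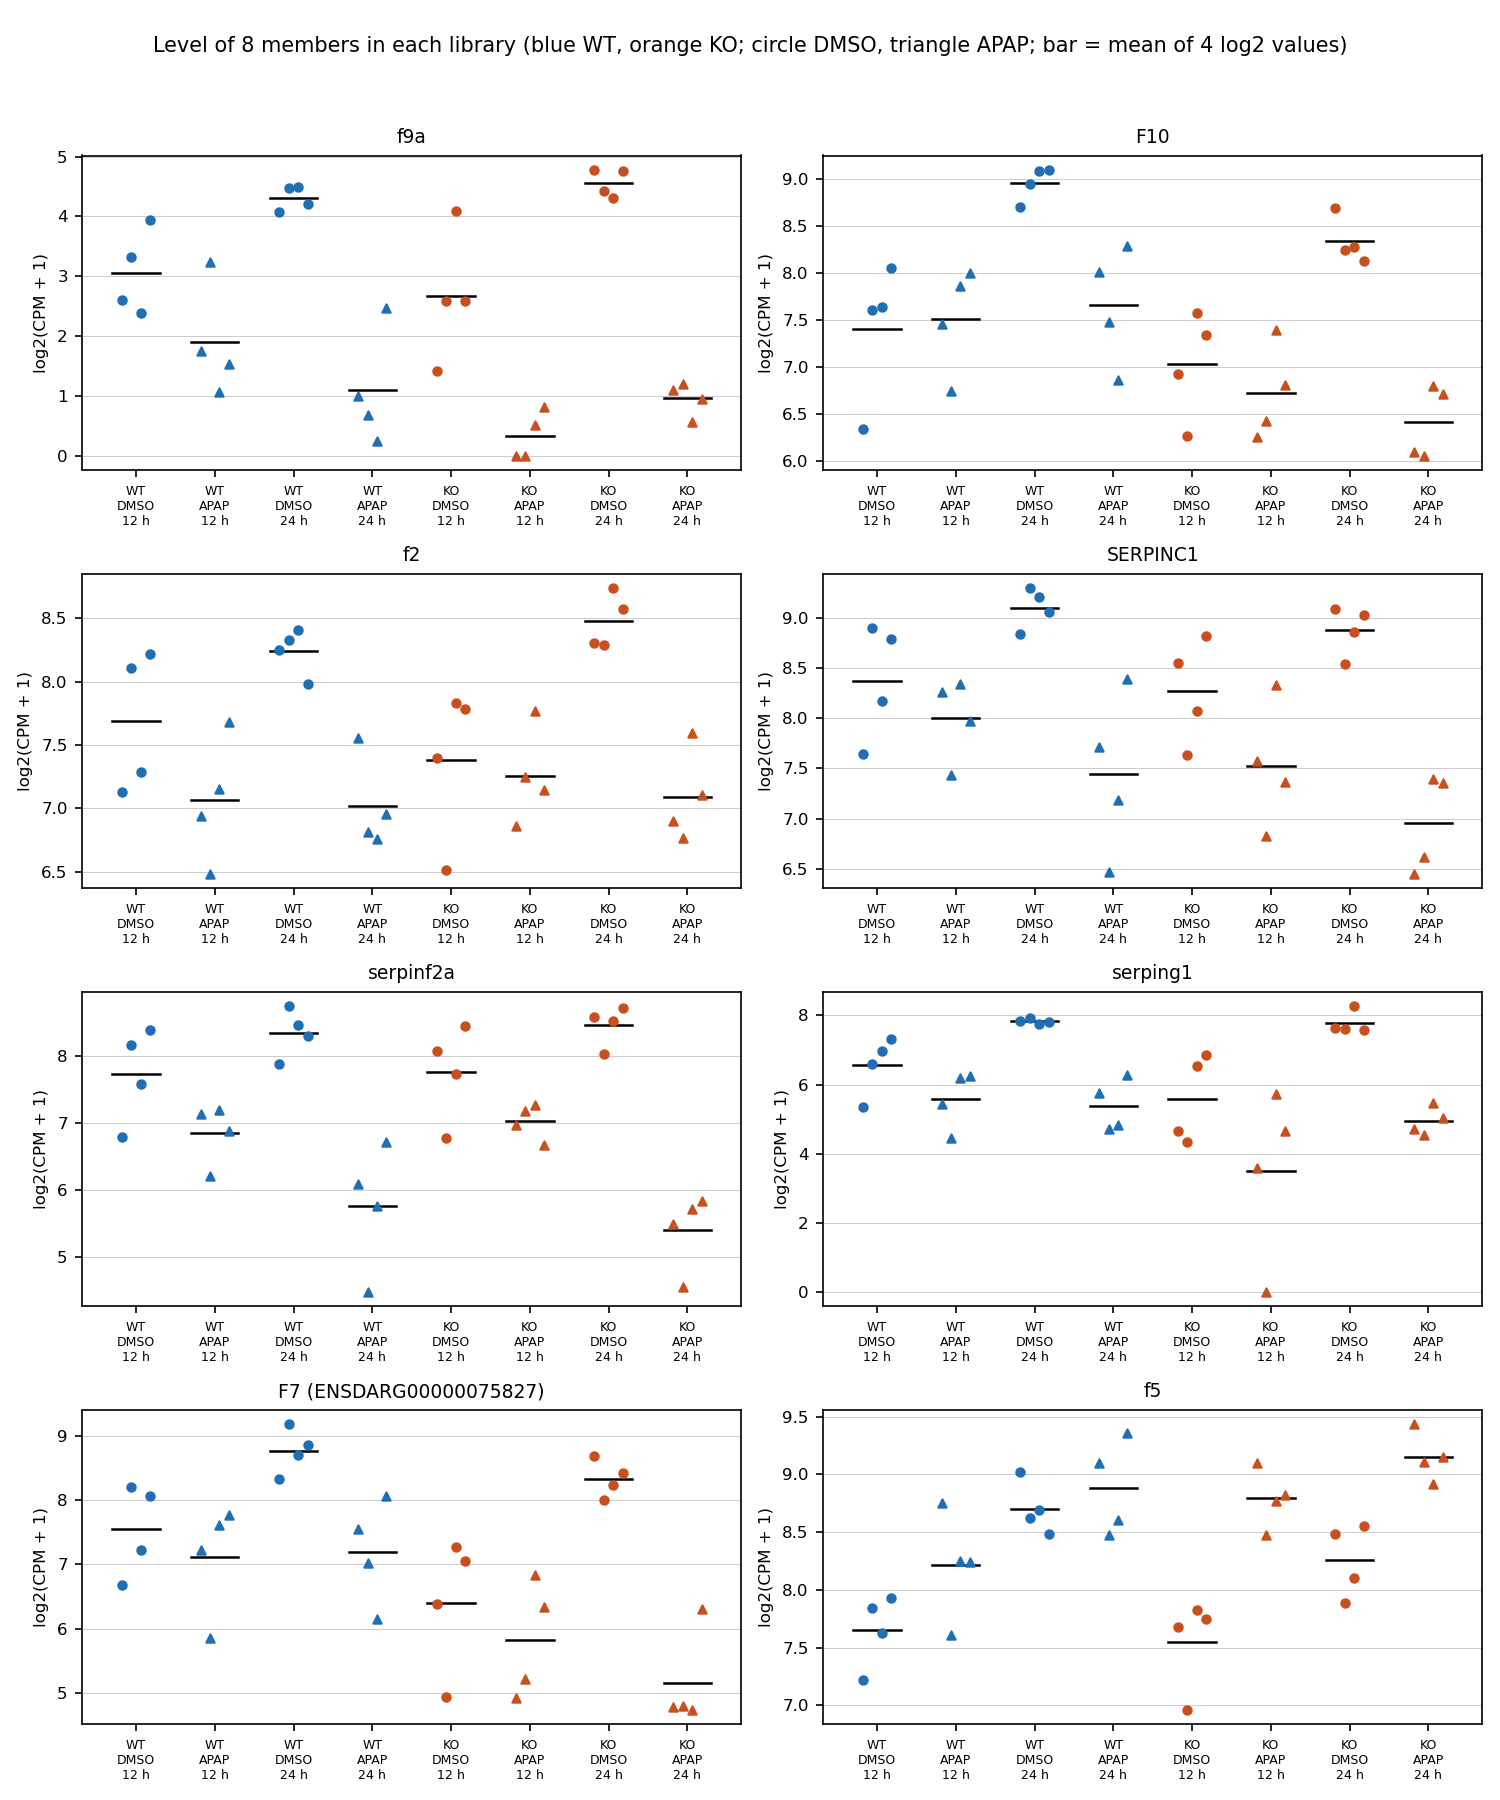
Level of 8 members in each library, as log2(CPM + 1) on the vertical axis, for the 8 groups on the horizontal axis (blue WT, orange KO, circles DMSO, triangles APAP); bars are means of the 4 log2 values. At 24 h the APAP triangles of every gene shown except f5 lie below the DMSO circles in both genotypes, and in KO the f5 triangles lie above the circles.

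Inhibitors of the clotting and contact proteases fell beside the proteases, and none was called at 12 h. At 24 h 3 of 6 members fell in WT and 2 of 6 in KO, beside 1.55% and 3.00% of all genes called lower. SERPINC1, the gene of antithrombin, was measured at 457, 628, 589 and 532 CPM in WT DMSO 24 h and at 208, 87.4, 145 and 335 CPM in WT APAP 24 h. In KO, DMSO 24 h held 542, 370, 463 and 519 CPM and KO APAP 24 h 86.4, 97.15, 167 and 162.5 CPM. Every APAP library was below every DMSO library, at -1.51 ± 0.36 in WT (adjusted p = 0.0089, edgeR) and -1.88 ± 0.36 in KO (adjusted p = 0.000495, edgeR). The WT call was lost without WT APAP 24 h replicate 2, the lowest library, at an adjusted p of 0.063.

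The gene serping1 encodes C1 inhibitor, which blocks contact-system and complement proteases. WT DMSO 24 h held 229, 243, 215 and 222 CPM and WT APAP 24 h 52.6, 25.2, 27.3 and 76.3 CPM, a change of -2.33 ± 0.65 (adjusted p = 0.034, edgeR). KO DMSO 24 h held 199, 195, 309 and 189 CPM and KO APAP 24 h 25.5, 22.3, 43.4 and 31.7 CPM, a change of -2.86 ± 0.66 (adjusted p = 0.0046, edgeR). Neither genotype showed overlap, and the gap in CPM was wide against the spread in each group; even so the WT call was lost without any 1 of the compared libraries except WT APAP 24 h replicate 4, with adjusted p up to 0.14. At 12 h KO APAP libraries ran from 0, in replicate 2, to 52.2 CPM, and serping1 was not called there with or without the 3 libraries of fewest genes (-1.51 and -0.88).

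The gene serpina10b, a copy of the protein Z-dependent protease inhibitor, was called lower in WT at 24 h (adjusted p = 0.041, edgeR) on 3 counts against 121. That is a ratio of 0.0260 with a 95% counting interval of 0.00528 to 0.0777, which covers counting error only. The call was lost when any 1 of the 8 libraries was left out, with adjusted p up to 0.15. SERPIND1, heparin cofactor II, and a2ml, a broad protease trap, were not called under APAP, with 24 h changes of -0.80 and -0.23 in WT and -0.77 and -0.28 in KO. The remaining copy, serpina10a, was at 1.07 ± 0.96 and 0.56 ± 0.97.

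In the plasmin system, 4 members, an inhibitor of plasmin fell at 24 h in both genotypes and none of the 4 was called higher. The gene serpinf2a, a copy of alpha-2-antiplasmin, stood at 236, 432, 352 and 315 CPM in WT DMSO 24 h and at 66.9, 21.2, 53.3 and 105 CPM in WT APAP 24 h. KO DMSO 24 h gave 385, 263, 370 and 423 CPM and KO APAP 24 h 43.9, 22.5, 51.4 and 56.2 CPM. The groups were far apart, at -2.44 ± 0.40 in WT (adjusted p = 8.49e-05, edgeR) and -3.05 ± 0.41 in KO (adjusted p = 1.59e-06, edgeR), and both calls held in all 14 alternatives. In KO the 24 h change minus the 12 h change was -2.20 ± 0.54, short of the threshold (adjusted p = 0.062, edgeR). The other copy, serpinf2b, was not called, at -1.40 ± 0.43 in WT (adjusted p = 0.061, edgeR) and -0.34 ± 0.42 in KO at 24 h.

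PLG, the gene of plasminogen itself, and SERPINE2, protease nexin 1, were not called under APAP. PLG ran from 308 to 390 CPM in KO DMSO 24 h and from 186 to 291 CPM in KO APAP 24 h, without overlap, and from 399 to 622 CPM and 146 to 504 CPM in WT. Its 24 h changes were -0.68 ± 0.37 in WT and -0.47 ± 0.37 in KO. Those of SERPINE2 were upward, at 0.40 in WT and 1.28 in KO, with at most 7.87 CPM in any library.

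Fibrinogen, the substrate of thrombin, was not called under APAP in any of the 4 comparisons, in any of its 3 chains. FGB, the beta chain, was at 1055, 1564, 2046 and 2004 CPM in WT DMSO 24 h and at 1687, 990, 1443 and 2591 CPM in WT APAP 24 h. KO DMSO 24 h held 2164, 1830, 2267 and 2003 CPM and KO APAP 24 h 2084, 1775, 2439 and 2454 CPM of it. These groups overlapped throughout. For FGB, fga and FGG the 24 h changes were 0.01 ± 0.33, 0.24 ± 0.30 and -0.19 ± 0.27 in WT and 0.08, 0.13 and -0.05 in KO. In KO at 12 h they were 0.98, 0.86 and 0.64, with adjusted p of 0.072, 0.086 and 0.16 (edgeR), and without the 3 libraries of fewest genes 0.96, 1.03 and 0.51, also not called. A p above the threshold does not show that the chains did not differ.

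**Figure D3:**
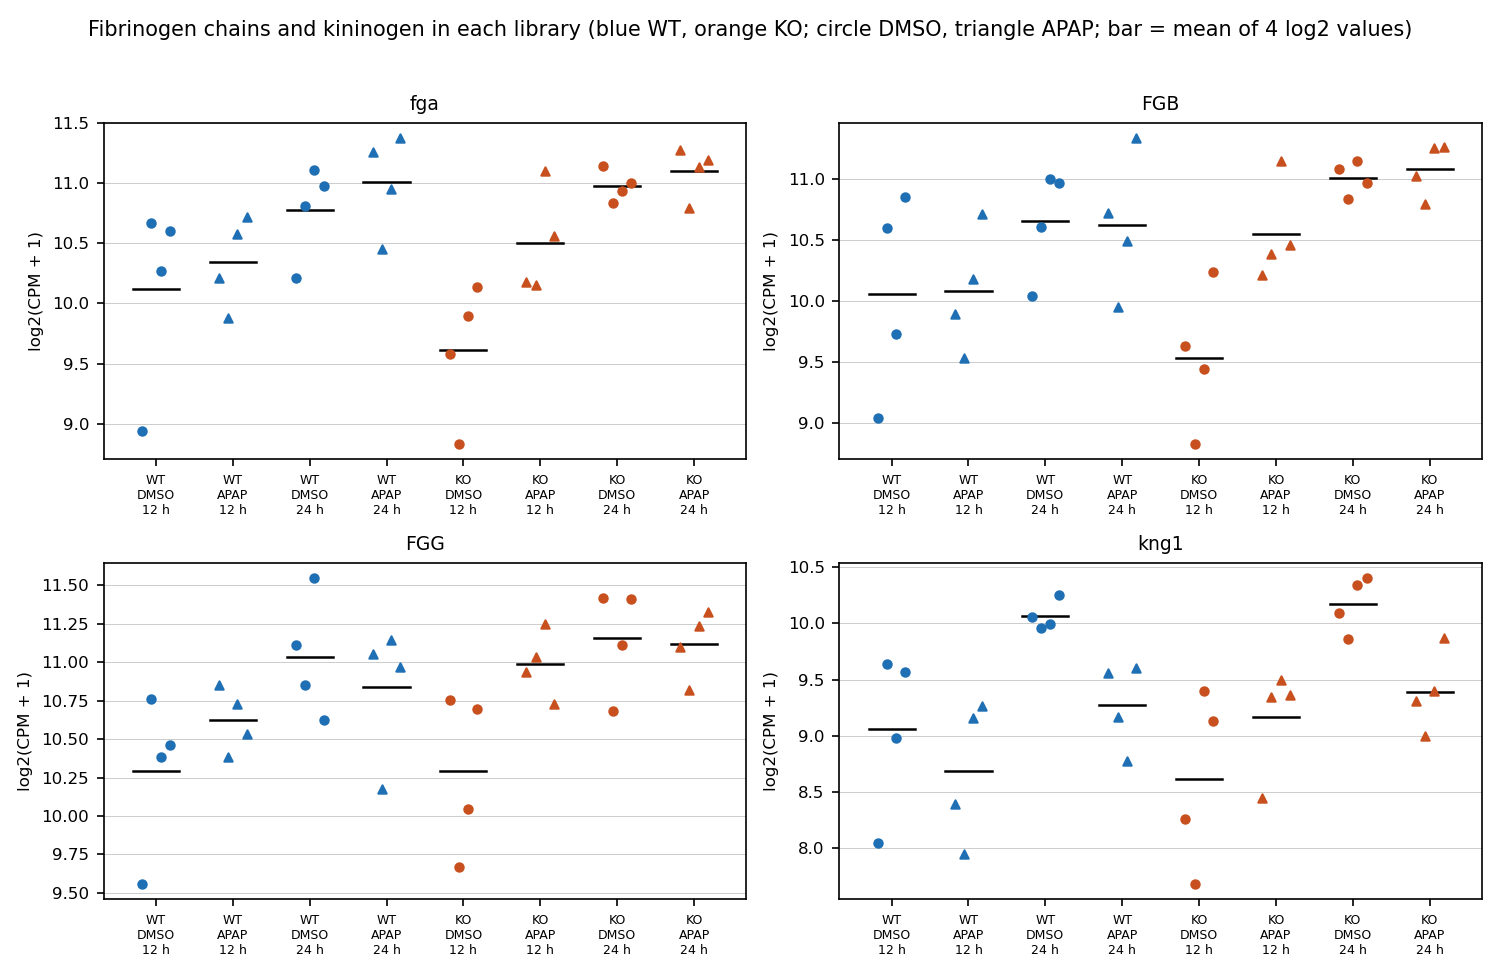
Level of the 3 fibrinogen chains and of kininogen (kng1) in each library, as log2(CPM + 1) on the vertical axis, for the 8 groups on the horizontal axis (blue WT, orange KO, circles DMSO, triangles APAP); bars are means of 4 log2 values. DMSO and APAP points of the fibrinogen chains overlap at 24 h, and KO DMSO points are higher at 24 h than at 12 h for fga and FGB.

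Among cofactors and contact or cross-linking factors, 9 members of which 4 were tested, factor V rose in KO. The cofactor gene f5 was at 204, 123, 226 and 214 CPM in KO DMSO 12 h and at 547, 355, 436 and 452 CPM in KO APAP 12 h, an increase of 1.22 ± 0.28 (adjusted p = 0.0045, edgeR). KO DMSO 24 h held 357, 235, 274 and 374 CPM and KO APAP 24 h 693, 550, 484 and 569 CPM, an increase of 0.89 ± 0.28 (adjusted p = 0.049, edgeR). Both pairs of groups were apart. Leaving out the 3 libraries of fewest genes gave a 12 h increase of 1.38 (adjusted p = 0.0028, edgeR). The 12 h call was lost with only the compared groups in the fit, at an adjusted p of 0.16, and the 24 h call in 9 of 14 alternatives, with adjusted p up to 0.18: with no filter, and without any 1 of the compared libraries. In WT, f5 changed by 0.59 at 12 h and 0.21 at 24 h, not called.

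The gene f13b, the carrier subunit of factor XIII, was called lower in KO at 12 h on 0 counts against 107, at least 24.0-fold lower against a floor of 3 counts over the group (adjusted p = 0.032, edgeR). KO DMSO 12 h replicate 2 also had 0, so the groups overlapped, and the call was lost in 8 of 13 alternatives, with adjusted p up to 0.093: without the 3 libraries of fewest genes, and without any 1 of the compared libraries except KO DMSO 12 h replicate 2. Both WT groups at 12 h held 0 to 0.304 CPM of f13b. It reached 8.19 CPM in KO DMSO 12 h and 9.58 CPM in KO DMSO 24 h, and at most 3.86 CPM in any other group. Its passing the filter on low counts thus leaned on the KO DMSO libraries, which include the controls of this call. The contact-system precursor kng1, kininogen, was not called under APAP (-0.76 ± 0.34 at 24 h in each genotype), nor was the tissue factor gene f3b (0.37 ± 1.56 in WT and 1.62 ± 1.61 in KO at 24 h).

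Of the secreted clade A serpins, serpina1 and serpina1l are named for alpha-1-antitrypsin, the elastase inhibitor of plasma. Under APAP 1 of the 3 members was called, serpina1l, in KO at 24 h, beside 3.00% of all genes called lower. The gene serpina1l was at 3781, 3381, 3094 and 3931 CPM in KO DMSO 24 h and at 879, 752, 2084 and 1870 CPM in KO APAP 24 h, and it fell by 1.35 ± 0.34 (adjusted p = 0.0099, edgeR). All 4 APAP libraries were lower, and the call was lost without KO APAP 24 h replicate 1 or 2, with adjusted p up to 0.072. In WT at 24 h serpina1l changed by -0.59 and serpina1 by -0.49 ± 0.34, while serpina1 changed by -0.39 ± 0.34 in KO; none was called. The thyroxine carrier serpina7 was not called, with 24 h changes of 0.05 and 0.42.

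No member among the other serpins was called in any of the 14 comparisons. They include SERPINH1, a collagen chaperone, on 2 rows, the cell-internal SERPINB1 and serpinb1l3, and serpinf1, and 9 of 12 were tested. Both SERPINH1 rows lay between 0 and 7.40 CPM. SERPINE3 had no count in any KO APAP 24 h library against 19 counts in KO DMSO 24 h, at least 6.77-fold lower against the same floor, and was not called (adjusted p = 0.089, edgeR).

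Markers of other cell types also differed at 24 h. Red blood cell genes took 0.164% ± 0.0683 (SD, n = 4) of counts in WT DMSO 24 h and 0.0369% ± 0.0123 in WT APAP 24 h, and 0.111% ± 0.0515 and 0.0281% ± 0.0117 in KO. Of the 6 tested red blood cell markers 3 were called lower in WT and 2 in KO, beside 1.55% and 3.00% of all genes. Hepatocyte markers took 10.05% ± 1.40 and 8.25% ± 1.52 in WT DMSO and APAP at 24 h, and 12.3% ± 0.733 and 10.4% ± 1.27 in KO, with 1 of 7, TTR, called lower in each genotype. Exocrine pancreas genes took 4.88% ± 1.85 and 4.92% ± 4.43 in WT DMSO and APAP at 24 h, the latter from 1.47% to 10.8%, and 5.28% ± 1.34 and 2.82% ± 0.392 in KO. Intestine genes took 0.207% ± 0.05002 and 0.188% ± 0.0942 in WT at 24 h and 0.236% ± 0.0643 and 0.150% ± 0.0229 in KO. Of the 6 tested intestine genes 1 was called under APAP, FABP2, a fatty acid-binding protein gene, lower in KO at 24 h (-1.69 ± 0.48, adjusted p = 0.026, edgeR) and at 12 h (-2.27 ± 0.49, adjusted p = 0.0027, edgeR). The 12 h call was lost without KO DMSO 12 h replicate 2, where intestine genes took 1.14%, and the 24 h call without KO DMSO 24 h replicate 2 or 3 or KO APAP 24 h replicate 1, 2 or 4, with adjusted p up to 0.16. Of all genes 2.13% were called lower in KO at 12 h. The part of these cell types in the falls was not tested.

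Genotype alone moved no member to a call in the reported fit, while other settings gave calls at 24 h, as listed below. In DMSO, KO against WT gave 0 of 41 calls at 12 h and 0 at 24 h, beside 0.246% and 0.281% of all genes, with 5 members at an unadjusted p under 0.05 at each time in edgeR; DESeq2 called 0 and 1, the latter F9. The factor IX row F9 was at 28.2, 50.6, 23.5 and 24.0 CPM in WT DMSO 24 h and at 11.5, 9.58, 8.97 and 8.48 CPM in KO DMSO 24 h, without overlap (-1.71 ± 0.60, adjusted p = 0.37, edgeR). The protein S gene pros1 was at 20.1, 18.7, 15.4 and 13.4 CPM in WT DMSO 24 h and at 3.25, 4.39, 5.44 and 1.91 CPM in KO DMSO 24 h, at -2.16 ± 0.67 (adjusted p = 0.27, edgeR). At 12 h pros1 was at 6.28, 9.62, 7.39 and 8.81 CPM in WT and at 2.46, 2.86, 2.67 and 1.87 CPM in KO. All KO libraries of pros1 were thus below all WT libraries at both times. Other members lay the other way. In DMSO 24 h serpina1 was at 3498, 2092, 2908 and 2797 CPM in KO and at 1273, 1715, 1679 and 1605 CPM in WT. In DMSO 12 h f13b had 107 counts in KO against 2 in WT, with overlap. How many of all genes had groups apart was not counted.

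Under APAP, KO against WT gave 1 call at each time, with 1 member lower, f9a at 12 h and F7 (ENSDARG00000075827) at 24 h, beside 0.949% and 0.624% of all genes called lower. The 12 h count was 0 without WT APAP 12 h replicate 1 or KO APAP 12 h replicate 1 or 2, and 2 without KO APAP 12 h replicate 3. The 24 h count was 0 without WT APAP 24 h replicate 4 or KO APAP 24 h replicate 1, 2 or 3, and 2 without WT APAP 24 h replicate 3. Without the 3 libraries of fewest genes the counts were 2 and 4. Over all genes that setting gave 166 higher and 118 lower at 12 h, and 218 and 225 at 24 h. With RLE scaling the split of all genes at 12 h went from 146 higher and 108 lower to 95 and 126.

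The differences between responses gave no call. For KO minus WT 0 of 41 members passed at 12 h and at 24 h, beside 0.0703% and 0.105% of all genes, with 3 members at an unadjusted p under 0.05 at each time in edgeR and 0 calls in DESeq2 at either. For 24 h minus 12 h the counts were 0 in WT and 0 in KO, beside 0.228% and 0.193%, with 5 and 9 members at an unadjusted p under 0.05 and 0 and 1 calls in DESeq2. So for members called in 1 genotype or at 1 time, such as f5, serpina1l and serpina10b, a difference between genotypes or times was not shown.

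Between 12 h and 24 h in DMSO several members rose, with none lower. In KO 6 rose (FGB, fga, F10, F7 (ENSDARG00000075827), kng1 and a2ml) and in WT 2 (F10 and f5), beside 1.75% and 1.21% of all genes called higher. The median member changed by 0.85 in KO and 0.67 in WT, and the median gene by -0.08 and -0.06. Other liver genes rose as well. Of 13 tested genes of other secreted liver proteins 6 were called higher in KO and 3 in WT, with medians of 1.46 and 1.06. Of 7 hepatocyte markers 3 and 1 were called higher, with medians of 1.37 and 0.86. The 2 lists share tfa, TTR and CP, and CP, called higher in KO, is counted in both. With RLE scaling the split of all genes went from 199 higher and 88 lower to 130 and 127 in KO, and from 138 and 95 to 109 and 117 in WT. The DMSO 24 h libraries are also the controls of the 24 h APAP comparisons. Of the members called lower in WT at 24 h, only serpinf2a had every APAP 24 h library below every DMSO 12 h library. In KO this held for f9a, SERPINC1 and serpinf2a. The other members called lower at 24 h overlapped their DMSO 12 h levels. For f9a in WT the overlap rests on APAP 24 h replicate 4, at 4.55 CPM, against DMSO 12 h replicate 3, at 4.22 CPM. How many of all genes called lower lay below their DMSO 12 h level was not counted. Overlap of 4 with 4 libraries does not show that the levels were the same. The part of the rise in DMSO in the 24 h changes under APAP was not tested.

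FGB was at 792, 453, 696 and 1209 CPM in KO DMSO 12 h and at 2164, 1830, 2267 and 2003 CPM in KO DMSO 24 h, a rise of 1.39 ± 0.33 (adjusted p = 0.012, edgeR). The alpha chain gene fga was at 764, 455, 953.5 and 1123 CPM and then at 2253, 1823, 1959 and 2040 CPM, a rise of 1.29 ± 0.30 (adjusted p = 0.011, edgeR). Groups of neither gene overlapped, and both calls were lost without KO DMSO 12 h replicate 2, the lowest library, at adjusted p of 0.089 and 0.086. Both were called without the 3 libraries of fewest genes, at 1.32 and 1.35 (adjusted p = 0.026 and 0.011, edgeR). The gamma chain FGG changed by 0.83 ± 0.27 and was not called (adjusted p = 0.10, edgeR). In WT the 3 chains changed by 0.48 ± 0.33, 0.56 ± 0.30 and 0.72 ± 0.27, none called. F10 rose by 1.44 ± 0.35 in WT (adjusted p = 0.015, edgeR) and 1.25 ± 0.35 in KO (adjusted p = 0.042, edgeR), f5 by 1.04 ± 0.28 in WT (adjusted p = 0.031, edgeR), and kng1 by 1.42 ± 0.34 and a2ml by 1.43 ± 0.38 in KO. All 5 of these rises were called without the 3 libraries of fewest genes, at 1.47, 1.43, 1.11, 1.69 and 1.39 in that order. Of 14 alternatives, the F10 call was lost in 1 in WT and in 8 in KO. The f5 call was lost in 8, that of kng1 in 3 and that of a2ml in 7, with adjusted p up to 0.23 (edgeR) among the 5. F7 (ENSDARG00000075827) rose by 1.73 in KO (adjusted p = 0.035, edgeR), a call lost in 6 of 14.

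These counts leaned on single libraries and on the fit. Without KO DMSO 12 h replicate 2 the KO count was 0, without KO DMSO 12 h replicate 1 or KO DMSO 24 h replicate 4 it was 2, without KO DMSO 24 h replicate 1 or 3 it was 3, and without the 3 libraries of fewest genes it was 14. In that last setting 434 of all genes were called higher and 324 lower. In KO DMSO 12 h replicate 2 hepatocyte markers took 6.05% of counts, the lowest share of any library. Intestine genes took 1.14% there, the highest share of any library. The part of this mixture in the KO rise was not tested. The WT count was 0 without WT DMSO 12 h replicate 1 and 1 without WT DMSO 12 h replicate 3 or WT DMSO 24 h replicate 1, 2 or 3. Exocrine pancreas genes took 2.50% ± 1.71 of counts in KO DMSO 12 h and 5.28% ± 1.34 in KO DMSO 24 h. Of them 7 of 13 were called higher, beside 1.75% of all genes, and their part in the rise was not tested.

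Ratios of related members within a library depend little on the scaling of libraries where both levels are well above 1 CPM. For 6 pairs, chosen after their values were seen, the log2 ratio of CPM + 1 was compared by exact two-sided permutation over the 70 assignments of 8 libraries. The smallest p this allows is 0.0286, and over the 48 tests no adjusted p was below 0.105. An adjusted p under 0.05 would need most of the 48 tests at that smallest p, so missing it decides nothing. As the pairs were chosen on their values, the unadjusted p-values only describe them. The ratio itself depends on transcript lengths, so only its shift is read. The alpha-1-antitrypsin pair differed most regularly between the genotypes. The log2 ratio of serpina1l over serpina1 was 1.83, 1.67, 1.64 and 1.32 in WT DMSO 12 h and 0.89, 0.70, 0.72 and 0.40 in KO DMSO 12 h. At 24 h it was 1.25, 1.13, 1.68 and 1.33 in WT DMSO and 0.11, 0.69, 0.09 and 0.49 in KO DMSO. Under APAP its mean was 1.32 and 1.24 in WT at 12 h and 24 h, and -0.22 and -0.71 in KO. No KO library reached any WT library of the same treatment and time (exact permutation p = 0.0286 in each of the 4, adjusted p = 0.105), and in KO the APAP minus DMSO difference of the ratio was -0.89 at 12 h and -1.06 at 24 h, without overlap (exact permutation p = 0.0286 each, adjusted p = 0.105). Without the 3 libraries of fewest genes the 12 h difference between KO and WT was -0.93 in DMSO and -1.67 under APAP, and that between APAP and DMSO in KO -1.01. Reads shared between these 2 near copies cannot be told apart here.

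Ratios of 3 other pairs were lower under APAP at 24 h in KO, also without overlap. The mean log2 ratio of f9a over F9 went from 1.16 in KO DMSO 24 h to -2.78 in KO APAP 24 h, and that of serpinf2a over serpinf2b from 1.92 to -0.65. The ratio of F7 (ENSDARG00000075827) over F7 (ENSDARG00000034862) went from 0.83 to -1.17 (exact permutation p = 0.0286 in each of the 3, adjusted p = 0.105). In WT the F7 ratio went from 0.76 to -0.22, also without overlap (exact permutation p = 0.0286, adjusted p = 0.105), while the first 2 went from -0.64 to -2.18 and from 0.93 to -0.29, with overlap (exact permutation p = 0.057 and 0.086). In DMSO 24 h these first 2 were already higher in KO than in WT, by 1.80 and 0.997, without overlap (exact permutation p = 0.0286 each, adjusted p = 0.105). Under APAP at 24 h KO minus WT was -0.60 and -0.36, with overlap. For the F7 ratio KO minus WT was 0.07 in DMSO and -0.95 under APAP at 24 h, both with overlap. Since f9a was near 1 CPM in most APAP libraries, its ratio leans on the 1 CPM added: with a smaller addition its WT shift at 24 h was -2.41 in place of -1.54. The ratio of fga over FGB spanned 0.79 over all 32 libraries, while fga alone spanned 2.54 and FGB alone 2.51 on the same log2 scale. The ratio of FGG over FGB spanned more, 1.51, beside 1.99 for FGG alone.

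**Figure D4:**
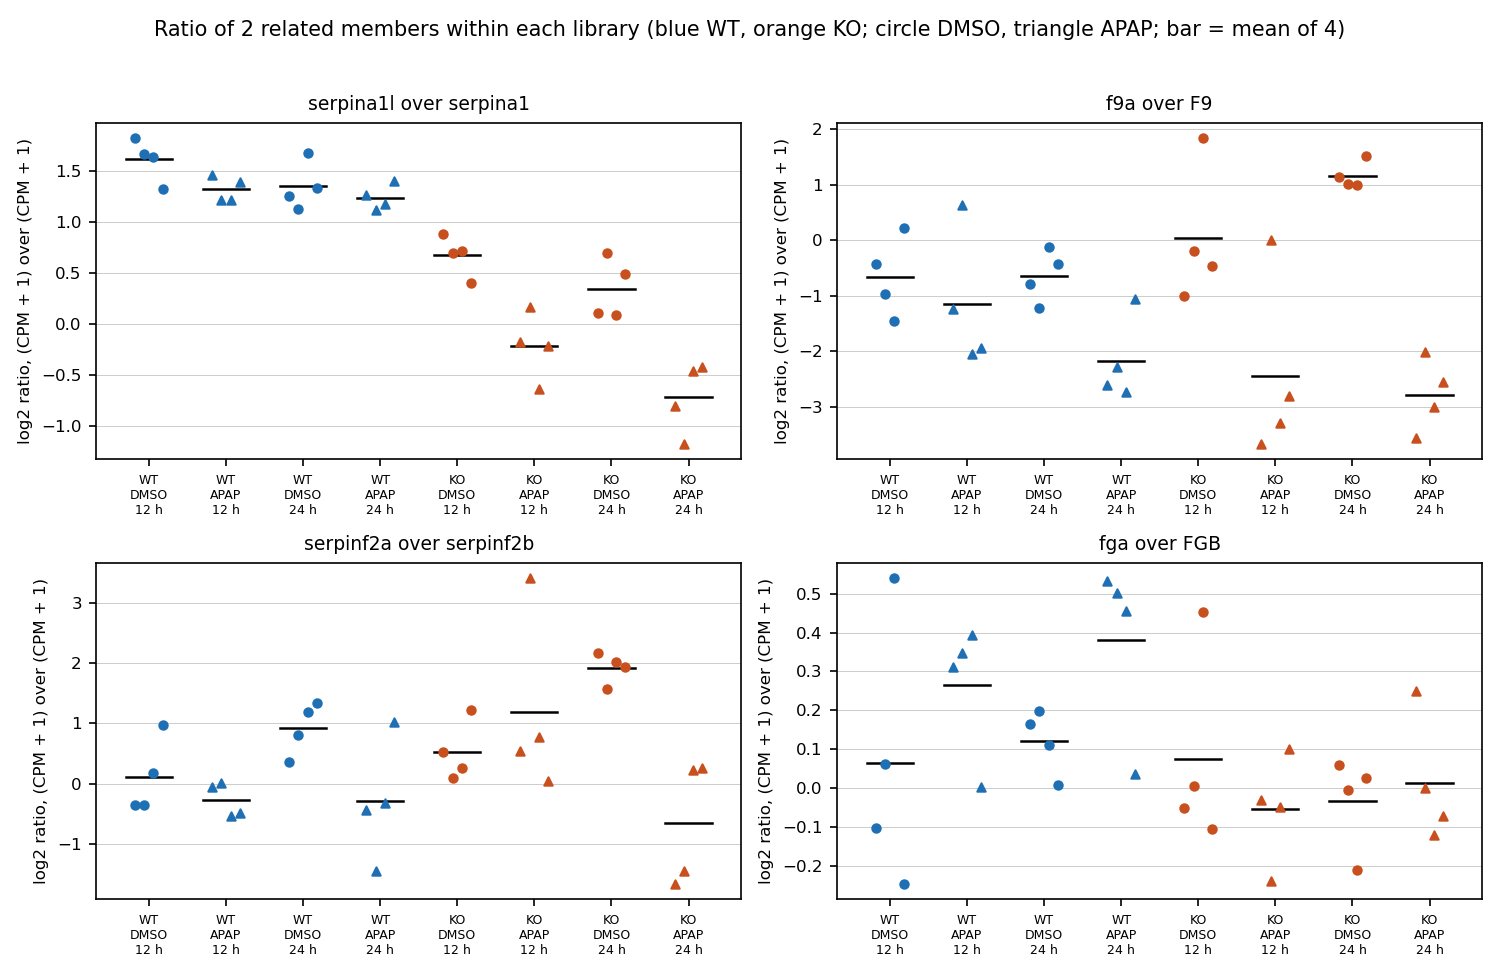
Log2 ratio of 2 related members within each library, from CPM + 1, on the vertical axis, for the 8 groups on the horizontal axis (blue WT, orange KO, circles DMSO, triangles APAP); bars are means of 4. For serpina1l over serpina1 all KO points lie below all WT points, and fga over FGB varies by less than 1 unit in all.

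Of the wider pathway, the protease gene habp2 fell at 24 h in both genotypes, and adamts13 was called lower in KO only. Among 13 tested genes of the vitamin K cycle and other coagulation steps, 1 fell in WT at 24 h and 2 in KO at 24 h, beside 1.55% and 3.00% of all genes called lower, and none rose under APAP. The protease gene habp2, whose human product activates factor VII, was at 323, 844, 721 and 861 CPM in WT DMSO 24 h and 283, 114, 164 and 268 CPM in WT APAP 24 h. It fell by 1.73 ± 0.42 in WT (adjusted p = 0.012, edgeR; 0.073 without WT APAP 24 h replicate 2) and by 2.69 ± 0.44 in KO (adjusted p = 5.27e-05, edgeR). The gene adamts13, whose product cuts von Willebrand factor, was at 1.74, 5.39, 8.16 and 8.48 CPM in KO DMSO 24 h and 0.193, 1.09, 0.482 and 0.472 CPM in KO APAP 24 h, a fall of 3.36 ± 0.73 (adjusted p = 0.0024, edgeR). Its WT change of -1.87 ± 0.62 was not called (adjusted p = 0.095, edgeR). Under APAP at 24 h adamts13 was lower in KO than in WT (-3.30 ± 0.72, adjusted p = 0.0086, edgeR), a call lost in 2 of 14 alternatives. In KO its 24 h change minus its 12 h change was -4.43 ± 0.95 (adjusted p = 0.027, edgeR), lost in 9 of 22. The difference between the genotypes in response gave 0 calls among the 13 genes at 24 h. Of 7 tested fibrinolysis genes 1, the plasminogen receptor gene anxa2b, fell in KO at 12 h (-4.15 ± 1.06, adjusted p = 0.013, edgeR), a call lost without KO DMSO 12 h replicate 2, its highest library, and with only the compared groups in the fit, with adjusted p up to 0.11; without the 3 libraries of fewest genes the change was -3.95. Of all genes 2.13% were called lower in KO at 12 h. No protease-activated receptor gene of the list was tested.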

How the data were processed

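Gene expression was measured by RNA sequencing of pooled larval livers. The authors deposited raw read counts per gene, which were made with bcl2fastq, Trim Galore, HISAT2 and HTSeq on the GRCz11 genome, per the submitters' processing notes. Tool versions, annotation release and strand setting are not given in the sources used here, so reads of antisense or overlapping genes, and of near-identical copies, may be miscounted.

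Counts of all 32519 named rows were fitted in R 4.3.3 with edgeR 4.0.16 (filterByExpr, TMM scaling with factors of 0.702 to 1.97, 1 mean per group over all 32 libraries, quasi-likelihood F-test, two-sided). The 11384 genes tested shared 1 Benjamini-Hochberg adjustment. An SE is the fold change over the square root of F. CPM was computed here from the deposited counts and the TMM factors. The fit was tested on simulated counts. Alternatives were RLE scaling, DESeq2 1.42.0, no filter, the compared groups alone, a replicate block, leaving out the 3 libraries with fewest genes, and each library in turn.

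The members and lists were chosen with earlier results of these data known. An item of the rule is not reported here. Named members were f9a, a fixed set of structural members (fibrinogen chains, f2, PLG, SERPINC1, SERPINH1, serpina1, serping1, vwf) and every member called. Others named beside them, the gene pairs and their alternatives were chosen after their values were seen. No library was a copy of another: the lowest chi-square per degree of freedom between libraries of a group was 15.54. Counting intervals (95%, exact) and floors cover counting error only.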

Additional observations from a re-analysis of the deposited data

Results flagged for a closer look

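In 12 of 168 groups of 4 libraries of the named members, 1 library lay far from the other 3, its gap to the nearest being past Dixon's critical value at 95%. Chance gives this in about 1 of 20 groups. Several flags rest on members with almost no counts: vwf at 0.200 CPM in WT DMSO 24 h replicate 4, 0.748 in WT APAP 24 h replicate 3, 0.517 in KO DMSO 12 h replicate 1 and 1.97 in KO APAP 12 h replicate 3. For f13b the libraries are WT DMSO 12 h replicate 4 at 0.304 CPM and WT APAP 12 h replicate 3 at 0.218 CPM.

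SERPINH1 (ENSDARG00000019949) was at 0.187 CPM in WT APAP 24 h replicate 3. The protease inhibitor gene serpina10b was at 1.27 CPM in WT APAP 12 h replicate 4 and at 10.2 CPM in WT DMSO 24 h replicate 1. F7 (ENSDARG00000075827) stood at 78.2 CPM in KO APAP 24 h replicate 4, beside 25.6 to 26.7 CPM in the others. Within KO DMSO 24 h, serping1 was high in replicate 3 at 309 CPM and a2ml low in replicate 2 at 859.97 CPM.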

How the results depend on the processing

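None of the 61 called gene changes tried under the alternatives changed sign, while 4 of 10 uncalled ones and 11 of 48 ratios of members did. No ratio was called, and their smallest possible p left little room for a call. The ratio of F7 (ENSDARG00000075827) over F7 (ENSDARG00000034862) under APAP in KO at 12 h went from 0.74 to -0.53 without the 3 libraries of fewest genes, and that of serpinf2a over serpinf2b from 0.66 to -0.16. The count of members called moved as follows, and the count over all genes moved as well. Under APAP in WT at 24 h all genes gave 187 higher and 177 lower in the reported fit. DESeq2 gave 323 and 344, no filter 204 and 216, and only the compared groups 384 and 393. In KO at 24 h the reported fit gave 233 and 342, DESeq2 369 and 513, no filter 229 and 365, and only the compared groups 657 and 779. With DESeq2 the count of members called was 1 in WT at 12 h, 13 in WT at 24 h and 8 in KO at 12 h under APAP. For KO against WT it was 1 in DMSO at 24 h, and 5 and 3 under APAP at 12 h and 24 h. It was 1 for the KO 24 h minus 12 h difference. Over all genes DESeq2 gave 209 higher and 200 lower in WT at 12 h under APAP. For KO against WT it gave 46 and 55 in DMSO at 24 h. Under APAP that comparison gave 285 and 469 at 12 h, and 110 and 185 at 24 h. The KO time difference gave 62 and 47. With no filter on low counts the member count was 6 in KO at 12 h under APAP, and 3 at each time where KO and WT were compared under APAP. It was 2 for the KO time difference, and 1 in WT and 10 in KO for 24 h against 12 h in DMSO. Over all 22516 genes then tested, KO at 12 h under APAP gave 369 higher and 289 lower. KO against WT under APAP gave 209 and 133 at 12 h, and 80 and 116 at 24 h. The KO time difference gave 35 and 98, and time in DMSO 221 and 122 in WT and 261 and 140 in KO. With only the compared groups the member count was 13 in WT at 24 h, 1 in KO at 12 h and 14 in KO at 24 h. It was 5 for KO against WT in DMSO at 24 h, 0 and 4 under APAP, 1 for the KO time difference, and 1 and 12 for time in DMSO. Over all genes this setting gave 71 higher and 20 lower in KO at 12 h under APAP. It gave 1 and 26 for the KO time difference, and 142 and 113 for time in WT DMSO. In the same setting, all genes for KO against WT in DMSO at 24 h went from 15 higher and 17 lower to 227 and 181. Under APAP it went from 146 and 108 to 19 and 13 at 12 h, and from 65 and 71 to 159 and 165 at 24 h. Time in KO DMSO went from 199 and 88 to 436 and 362. Leaving out the 3 libraries of fewest genes gave 100 and 71 of all genes for KO against WT in DMSO at 24 h. It gave 16 and 19 for the KO minus WT difference at 24 h. For the KO time difference it gave 10 and 39, and for time in WT DMSO 287 and 251. Without the 3 libraries of fewest genes the count of members called was 13 in WT and 14 in KO at 24 h, 2 for KO against WT in DMSO at 24 h, 2 and 4 under APAP, 1 for the KO minus WT difference at 24 h, 1 for the KO time difference, and 4 and 14 for time in DMSO. RLE scaling gave 3 and 2 members for KO against WT under APAP, and 1 and 3 for time in DMSO. Of all genes it called 59 higher and 92 lower for KO against WT under APAP at 24 h. It turned the split of all genes from more higher to more lower in KO under APAP at 12 h, for KO against WT under APAP at 12 h and for time in WT DMSO. It moved the median of all genes from -0.30 to -0.51 in KO under APAP at 12 h, from -0.30 to -0.45 for KO against WT under APAP at 12 h, from -0.06 to -0.22 for time in WT DMSO and from -0.08 to -0.27 in KO DMSO. The cause of these moves was not tested.

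Leaving out 1 library gave 0 to 0 calls in WT at 12 h, 2 to 6 in WT at 24 h, 2 to 6 in KO at 12 h and 7 to 8 in KO at 24 h under APAP. For KO against WT it gave 0 to 0 in DMSO at both times and 0 to 2 under APAP at each time, and for time in DMSO 0 to 2 in WT and 0 to 5 in KO. Differences of responses gave 0 to 0 or 0 to 1, the single call being without KO APAP 24 h replicate 4.

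In no comparison did all 4 same-numbered pairs have deviations correlated at over 0.1, so the libraries were not treated as paired. APAP in KO at 24 h came closest, at 0.0996 to 0.148, with each library correlating best with its own number, a hint of pairing from the data and not from the design. Among the members the replicate block gave 5 calls in KO at 12 h and 10 in KO at 24 h under APAP. It gave 3 and 2 for KO against WT under APAP at 12 h and 24 h, and 1 for the KO time difference. Over all genes the block gave 287 higher and 206 lower in KO at 12 h, and 225 and 343 in KO at 24 h. KO against WT under APAP gave 90 and 80 at 12 h and 62 and 66 at 24 h. The KO time difference gave 4 and 24. Pooled livers, levels of a few CPM and 4 libraries per group limit what low members can show.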

Other observations

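Angiotensinogen, whose gene agt belongs to the serpin superfamily without a serpin name, was measured outside the members and was chosen after its values were seen. In KO DMSO 12 h agt was at 182, 123, 224 and 321 CPM and in KO APAP 12 h at 1607, 2122, 1306 and 1508 CPM, a rise of 2.95 ± 0.29 (adjusted p = 4.25e-09, edgeR). In KO DMSO 24 h it was at 173.5, 136, 193 and 192 CPM and in KO APAP 24 h at 1799, 1389, 1561 and 1556 CPM, a rise of 3.18 ± 0.29 (adjusted p = 5.78e-10, edgeR). WT DMSO 24 h libraries held 149, 201, 244 and 199 CPM and WT APAP 24 h libraries 477, 349, 459.6 and 452 CPM, a rise of 1.13 ± 0.27 (adjusted p = 0.0107, edgeR; 0.0691 without WT DMSO 24 h replicate 1). No APAP library of these pairs reached down to a DMSO library. The KO response exceeded the WT response by 2.50 ± 0.39 at 12 h (adjusted p = 0.000407, edgeR) and by 2.05 ± 0.39 at 24 h (adjusted p = 0.00615, edgeR), in all 22 alternatives each. Without the 3 libraries of fewest genes the KO rise at 12 h was 2.80 and the 12 h difference between genotypes 2.33.

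Of 13 tested genes of other secreted liver proteins, agt included, 1 rose and 3 fell in WT at 24 h, 2 rose in KO at 12 h, and 1 rose and 3 fell in KO at 24 h. TTR, among the 3 that fell in each genotype, is also the hepatocyte marker called lower above. Of all 11384 genes 187 were called higher and 1.55% lower in WT at 24 h. In KO 3.09% were called higher at 12 h, and 2.05% higher and 3.00% lower at 24 h. The vitamin D carrier GC fell by 1.69 ± 0.35 in WT and 2.61 ± 0.36 in KO, and the fetuin gene ahsg1 by 3.46 ± 0.72 and 4.24 ± 0.75, at 24 h. Of 20 tested hepatocyte transcription factor genes, CEBPB rose by 1.66 ± 0.33 and foxa3 by 1.84 ± 0.44 in KO at 12 h, both lost with only the compared groups in the fit and foxa3 also with no filter on low counts; without the 3 libraries of fewest genes they rose by 1.57 and 1.51. FOXA2 fell by 2.49 ± 0.74 in KO at 24 h, a call lost with the replicate block and without any 1 of the compared libraries except KO APAP 24 h replicate 2, with adjusted p up to 0.155.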
